A study of Homo sapiens with 12 samples.

Results

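Trimethylation of histone H3 at lysine 4 (H3K4me3) and at lysine 27 (H3K27me3) was mapped side by side in vehicle-treated MKL-1 cells, an established line from a Merkel cell carcinoma positive for Merkel cell polyomavirus. Each protein-coding gene on chromosomes 1 to 22 was placed in 1 of 4 classes by the peaks within 2.5 kb of either of its ends: H3K4me3 only, H3K27me3 only, both marks, or neither mark. A mark counted when a peak was present in both replicate libraries. All 19126 protein-coding genes on these chromosomes were classed, from 4 of the 12 libraries in the series, 2 per mark. The 2 vehicle IgG libraries served as background, and the libraries of cells given the EZH2 inhibitor EPZ011989 were not used.

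Vehicle cells grew for 6 days in 1% ethanol, with the medium renewed on day 3. Each culture was divided between the antibodies, so replicates with the same number came from the same culture. In CUT&RUN an antibody bound to chromatin in permeabilized cells directs a nuclease, here for 30 min, to release the DNA beneath it. Antibodies were diluted 1 to 100, and E. coli DNA at 200 pg/mL was added as a spike-in that was not used here. The duplicates come from 1 cell line, so their spread covers repeated culture and library making and not different tumours.

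H3K4me3 is laid down at the start sites of transcribed or poised genes by the SET1 and MLL methyltransferases, mostly at promoters rich in CpG. H3K27me3 is laid down by PRC2, whose catalytic subunit is EZH2, and covers developmental and lineage genes that are kept silent. Promoters that carry both marks are called bivalent, a state best known from stem cells, where it marks developmental regulators. Merkel cells are the touch-sensing neuroendocrine cells of the epidermis, and Merkel cell carcinoma shares their markers, including ATOH1, SOX2 and keratin 20. In lists of peaks from many cells, both marks on the same nucleosome and each mark in a different share of the cells cannot be told apart.

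The classes differed in the CpG content of their promoters, and the promoters of 8 lineage genes are shown for that reason, 250 bases before to 50 after the start site. ATOH1, the master factor of Merkel cells (chr4:93828503-93828802, plus strand), and CHGA, the secretory granule protein chromogranin A (chr14:92922900-92923199, plus strand), had H3K4me3 only. NEUROG2, a neurogenic bHLH factor (chr4:112516131-112516430, minus strand), and NKX2-2, a homeobox factor of the ventral neural tube and endocrine pancreas (chr20:21522640-21522939, minus strand), had both marks. NEUROG1, a proneural factor of sensory ganglia (chr5:135535915-135536214, minus strand), and CDX2, the intestinal homeobox factor (chr13:27969266-27969565, minus strand), had H3K27me3 only. ALB, the liver's albumin (chr4:73404037-73404336, plus strand), and TYR, the melanocyte enzyme tyrosinase (chr11:89177625-89177924, plus strand), had neither mark. The sequences are RefSeq's for GRCh38.p14, read 5′ to 3′ along the gene, and capitals mark each CG.
ATOH1: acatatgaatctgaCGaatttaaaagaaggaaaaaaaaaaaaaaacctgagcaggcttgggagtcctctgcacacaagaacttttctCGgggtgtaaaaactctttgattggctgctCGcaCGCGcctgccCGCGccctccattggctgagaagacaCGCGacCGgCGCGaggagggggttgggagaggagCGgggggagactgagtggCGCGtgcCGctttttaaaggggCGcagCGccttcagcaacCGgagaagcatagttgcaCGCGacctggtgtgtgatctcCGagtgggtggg
CHGA: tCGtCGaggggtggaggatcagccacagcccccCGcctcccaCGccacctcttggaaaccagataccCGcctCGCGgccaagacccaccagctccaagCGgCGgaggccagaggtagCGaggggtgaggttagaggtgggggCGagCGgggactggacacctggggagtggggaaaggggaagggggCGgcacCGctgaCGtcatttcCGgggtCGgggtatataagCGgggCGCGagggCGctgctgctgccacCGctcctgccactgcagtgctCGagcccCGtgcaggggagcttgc
NEUROG2: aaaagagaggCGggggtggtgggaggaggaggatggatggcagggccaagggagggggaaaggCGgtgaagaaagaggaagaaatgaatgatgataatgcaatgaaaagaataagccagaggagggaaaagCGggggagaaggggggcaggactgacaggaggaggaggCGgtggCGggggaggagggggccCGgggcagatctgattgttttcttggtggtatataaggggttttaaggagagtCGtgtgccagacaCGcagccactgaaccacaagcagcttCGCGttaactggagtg
NKX2-2: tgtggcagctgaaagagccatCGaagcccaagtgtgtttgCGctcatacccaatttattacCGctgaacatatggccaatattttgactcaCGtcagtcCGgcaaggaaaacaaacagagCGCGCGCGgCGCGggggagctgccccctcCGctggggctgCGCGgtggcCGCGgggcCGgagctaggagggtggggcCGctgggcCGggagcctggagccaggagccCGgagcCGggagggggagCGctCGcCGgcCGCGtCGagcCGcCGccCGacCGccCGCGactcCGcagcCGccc
NEUROG1: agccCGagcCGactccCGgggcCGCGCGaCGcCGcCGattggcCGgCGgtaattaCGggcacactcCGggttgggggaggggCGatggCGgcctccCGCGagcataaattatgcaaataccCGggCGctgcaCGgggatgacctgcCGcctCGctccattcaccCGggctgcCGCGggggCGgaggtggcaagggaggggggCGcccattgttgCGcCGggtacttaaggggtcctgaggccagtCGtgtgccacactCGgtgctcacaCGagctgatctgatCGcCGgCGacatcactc
CDX2: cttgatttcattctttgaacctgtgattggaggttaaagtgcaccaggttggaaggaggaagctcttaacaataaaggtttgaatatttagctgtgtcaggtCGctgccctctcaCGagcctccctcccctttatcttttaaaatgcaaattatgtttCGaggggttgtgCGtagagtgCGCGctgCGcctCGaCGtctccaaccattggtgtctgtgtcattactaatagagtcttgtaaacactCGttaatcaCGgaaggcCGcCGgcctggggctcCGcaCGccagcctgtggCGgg
ALB: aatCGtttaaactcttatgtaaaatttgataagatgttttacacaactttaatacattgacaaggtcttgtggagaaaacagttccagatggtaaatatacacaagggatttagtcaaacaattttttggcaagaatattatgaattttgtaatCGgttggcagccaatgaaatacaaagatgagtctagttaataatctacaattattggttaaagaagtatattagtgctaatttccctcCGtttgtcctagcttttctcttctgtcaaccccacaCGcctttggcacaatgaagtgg
TYR: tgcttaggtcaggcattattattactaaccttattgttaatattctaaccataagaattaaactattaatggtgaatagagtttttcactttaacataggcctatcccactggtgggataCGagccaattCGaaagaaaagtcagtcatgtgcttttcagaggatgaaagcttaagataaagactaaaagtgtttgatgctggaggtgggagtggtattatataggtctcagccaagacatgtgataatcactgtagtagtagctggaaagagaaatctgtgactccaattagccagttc
The CG count was 22 at ATOH1, 24 at CHGA, 10 at NEUROG2, 35 at NKX2-2, 35 at NEUROG1, 16 at CDX2, 4 at ALB and 2 at TYR. Of these 8 promoters the 2 without either mark had the fewest. NEUROG1 and CDX2 lay above the median CG count of 9 over promoters with H3K27me3 only, so single promoters depart from their class.

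H3K27me3 peaks covered far more of the genome than H3K4me3 peaks, but H3K4me3 reached more genes. The H3K4me3 libraries held 22102 and 23193 peaks, and the H3K27me3 libraries 40186 and 43634. Peaks covered 39.8 and 40.9 Mb for H3K4me3 and 152 and 173 Mb for H3K27me3. The means were 40.3 ± 0.727 Mb and 163 ± 14.9 Mb (SD, n = 2 each), a log2 ratio of 2.01, and the ranges did not overlap. With only peaks whose −log10 q (minus the decimal logarithm of the false discovery rate of the call) was 4 or more, the log2 ratio was 1.35. An exact two-sided permutation test over the 6 labellings of 2 + 2 libraries gave p = 0.333, the smallest it can give with n = 2 each. Narrow peaks were called for H3K4me3 and broad peaks for H3K27me3, so the kind of call and the mark cannot be told apart in these lengths. Of the 2 H3K27me3 libraries, replicate 2 covered more, and the number of reads behind either list is unknown.

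Background in the IgG libraries was 37 and 4 peaks, over 12.6 and 1.14 kb. IgG peaks touched the windows of 6 genes in replicate 1 and of no gene in replicate 2. Those genes were PADI6 in the H3K27me3-only class, CHRNG, TIGD1 and THAP1 in the H3K4me3-only class, and DEFB124 and REM1 in the class with both marks. The windows of the other genes held no IgG peak.

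Of all genes, 7777 (40.7%) had H3K4me3 only, 2482 (13.0%) had H3K27me3 only, 4773 (25.0%) had both marks and 4094 (21.4%) had neither. H3K4me3 was thus present at 12550 genes (65.6%) and H3K27me3 at 7255 (37.9%). H3K27me3 was found at 38.0% of the genes with H3K4me3 and at 37.7% of those without it, shares that lie close together. With peaks of −log10 q 4 or more, they were 20.1 and 23.5%. Of the H3K27me3 genes, 65.8% also had H3K4me3. The 2 cultures put 16617 genes (86.9%) in the same class. Most of the discordance was H3K27me3 called in 1 library: 1679 H3K4me3-only genes (21.6% of the class) had an H3K27me3 peak in 1 of the 2 libraries. By contrast, 214 H3K27me3-only genes (8.62%) had an H3K4me3 peak in 1 library. In the class with neither mark, 3478 genes (85.0%) had no peak in any of the 4 libraries.

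The counts turned on how weak an H3K27me3 peak was accepted. The median −log10 q of the authors' peak calls was 2.11 and 2.15 for H3K27me3, against 39.3 and 32.5 for H3K4me3. With only peaks of −log10 q 4 or more, 2491 genes kept both marks and 1585 had H3K27me3 only.

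Distances set the edge of each class. For H3K4me3, the genes nearest to the edge inside it were FAM78A at 2496 bp, KCNJ9 at 2494 bp and ENDOU at 2487 bp. Just outside were ARHGAP25, LAD1 and SDCBP2, each at 2501 bp. For H3K27me3, DESI2 at 2500 bp, DYNC1H1 at 2499 bp and FOXR1 at 2496 bp were inside, and CUZD1 at 2502 bp, AGER at 2503 bp and MED27 at 2503 bp were outside.

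At most genes with both marks the peaks overlapped, though often by a short stretch. Peaks of both marks shared 1 bp or more in both cultures at 3892 of the 4773 genes (81.5% of the class, 20.3% of all genes). With 500 bp or more of shared bases required in both cultures, 2861 genes (59.9%) remained. At 453 genes (9.49%) the peaks shared 1 bp or more in 1 culture only. At 428 (8.97%) they did so in neither, so the marks there lay apart within the window. Across the genome, shared bases came to 6.03 Mb in culture 1 and 7.51 Mb in culture 2. That was 15.1% and 18.4% of the H3K4me3 length, but 3.96% and 4.34% of the H3K27me3 length.

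Within gene-end windows, each mark covered fewer bases at genes with both marks than at genes with that mark alone. For each gene and library, the bases of the gene's window (at most 10002 bp) inside peaks were counted. The median for H3K4me3 was 2900 and 2929 bp at H3K4me3-only genes and 2113 and 2149 bp at genes with both marks. The median for H3K27me3 was 5001 bp in both libraries at H3K27me3-only genes and 2589 and 3007 bp at genes with both. A length of 5001 bp is the full width of the window at 1 gene end, so longer peaks are cut there. The longest H3K27me3 peak at the window, measured whole, had a median of 7891 and 9418 bp at H3K27me3-only genes. It was 4828 and 5677 bp at genes with both. Each library gave the same order. The authors' fold enrichment of the strongest peak in the window went the same way: its median for H3K4me3 was 53.4 and 50.6 at H3K4me3-only genes, against 38.8 and 36.1 at genes with both marks. For H3K27me3 it was 5.27 and 5.63 at H3K27me3-only genes, against 4.65 and 4.93.

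**Figure D1:**
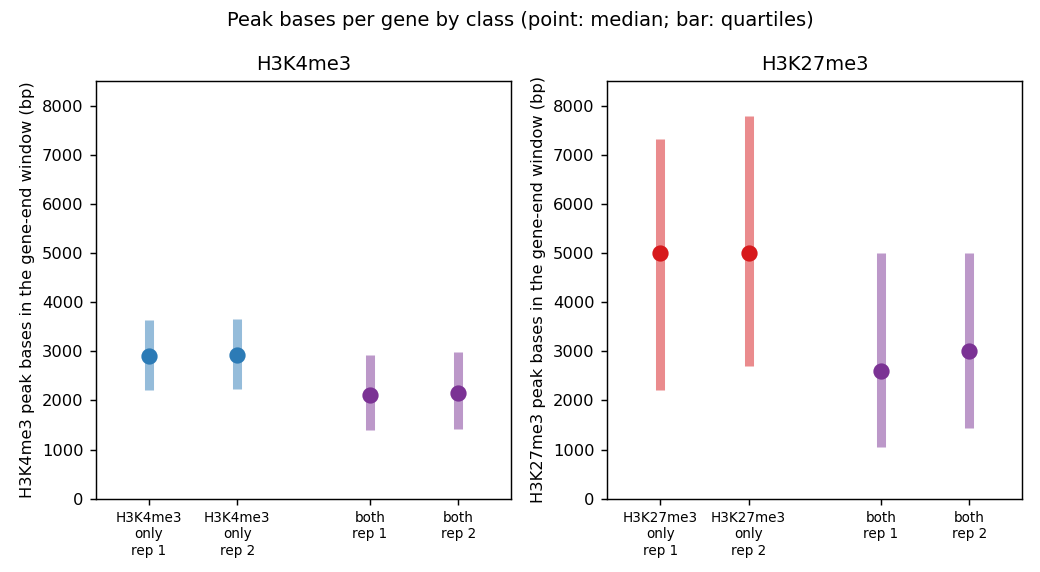
Bases of the gene-end window inside H3K4me3 peaks (left, bp) and H3K27me3 peaks (right, bp), by class and replicate library; points are medians over genes and bars run from the lower to the upper quartile. In both replicates of each mark the median at genes with both marks lies below that at genes with 1 mark.

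The shorter the H3K4me3, the more often H3K27me3 was beside it. Genes were binned by the H3K4me3 bases in the window, in the lower of the 2 libraries. H3K27me3 was present at 764 of 1106 genes (69.1%) with under 1 kb of H3K4me3, and at 1631 of 2954 (55.2%) with 1 to 2 kb. It was present at 1406 of 4266 genes (33.0%) with 2 to 3 kb, 610 of 2726 (22.4%) with 3 to 4 kb and 362 of 1498 (24.2%) with 4 kb or more. The share fell from each bin to the next except the last. With peaks of −log10 q 4 or more the shares were lower, at 51.8, 31.1, 15.7, 9.36 and 9.02%, and the order held through all bins. Among genes with both marks, H3K27me3 peaks of 20 kb or more touched 444 genes (9.30%), against 661 H3K27me3-only genes (26.6%). Beside these long peaks H3K4me3 had a median of 1730 and 1774 bp, against 2603 and 2655 bp beside H3K27me3 peaks of under 2 kb.

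Around the start site the marks had different shapes. Start sites were taken from RefSeq's promoter table on the 14 chromosomes where at least 80% of genes have an entry, which gave 11073 of 12836 genes. H3K4me3 lay at the start of 4472 of 4653 H3K4me3-only genes (96.1%). It was lopsided toward the gene body: 1 kb after the start it covered 83.7 and 84.0% of these genes, and 1 kb before it 47.6 and 47.5%. H3K27me3 lay at the start of 1165 of 1366 H3K27me3-only genes (85.3%) and at the other end alone of 161 (11.8%). Its coverage there was broad, at 64.7 and 68.2% on the start site and between 55.3 and 64.2% at 2.5 kb to either side.

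Of 2825 genes with both marks and a start site, 2424 (85.8%) had both at the start, and 2063 (73.0%) shared bases there in both cultures. A listed start can also lie inside the span of a gene, beyond the windows at its ends: EDNRB, the endothelin receptor of melanocyte precursors, had neither mark near its ends but both at its listed start. ALDH1L1, MEF2C and TCF7 were of the same kind. At 143 genes (5.06%) H3K4me3 was at the start and H3K27me3 at the other end alone, and at 103 (3.65%) the reverse. Over all 2825 genes, H3K27me3 had a narrow peak of coverage just before the start. It was 64.5% at 150 bp before the start in replicate 1 and 69.7% at 200 bp before it in replicate 2. It fell off unevenly. At 2.5 kb before the start it covered 52.8 and 55.9% of the genes, and at 2.5 kb after it 39.1 and 41.2%. The H3K4me3 peaks of these genes covered 60.0 and 59.9% at 1 kb after the start and 26.0 and 27.1% at 1 kb before.

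**Figure D2:**
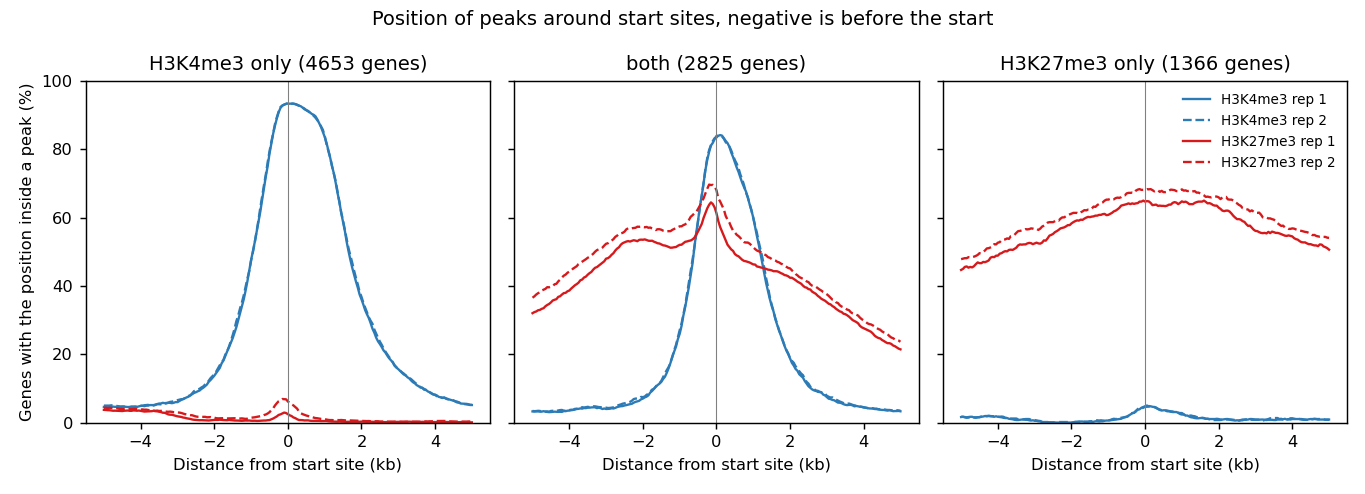
Share of genes (%) whose position at a given distance from the start site (kb, negative before the start) lies inside a peak, for 3 classes; blue is H3K4me3, red is H3K27me3, solid lines are replicate 1 and dashed lines replicate 2. H3K4me3 extends further after the start than before it, and H3K27me3 at genes with both marks has a maximum just before the start over a broad flank. A low rise of H3K27me3 lies at the same place at H3K4me3-only genes.

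Promoters of genes with H3K4me3, alone or with H3K27me3, held more CpG than those of the other classes. The median ratio of observed to expected CpG was 0.853 with H3K4me3 only, 0.817 with both marks, 0.377 with H3K27me3 only and 0.299 with neither, against 0.763 over all 11073 promoters. The median CG count in 300 bases was 26, 26, 9 and 5 in the same order, and the median GC content 65.0, 66.3, 59.0 and 50.7%. Among 7374 promoters with a CpG ratio of 0.6 or more, 54.1% had H3K4me3 only, 31.6% both marks, 6.67% H3K27me3 only and 7.61% neither. Among the 3699 below 0.6, the shares were 17.9, 13.4, 23.6 and 45.1%. The letters TATAAA on either strand, the core of the TATA box, were in 5.78% of H3K4me3-only, 6.12% of both-mark, 12.2% of H3K27me3-only and 19.2% of unmarked promoters, against 9.35% of all. The median gene length was 30.0 kb with H3K4me3 only and 29.6 kb with both marks, against 16.1 kb with H3K27me3 only and 14.7 kb with neither. CpG content, gene length and class moved together, and their parts in the class were not tested.

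The factors that define Merkel cells stood in the H3K4me3-only class. Of 16 Merkel cell lineage factors and keratins, 12 (75%) had H3K4me3 only, 3 (18.8%) both marks and 1 (6.25%) H3K27me3 only. The shares of all genes were 40.7, 25.0 and 13.0% in that order. Over the list the median of H3K4me3, as the mean of the libraries, was 5539 bp against 1842 bp over all genes, and that of H3K27me3 was 0 against 0. ATOH1 carried 6380 and 6357 bp of H3K4me3 and no H3K27me3. SOX2, an HMG-box factor that promotes Merkel cell maturation, carried 7253 and 7424 bp. POU4F3, a POU factor of Merkel and hair cells, carried 7890 and 7890 bp. All 3 were longer in each library than the class median of 2900 and 2929 bp.

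ISL1, a LIM homeobox factor of sensory neurons, was covered over its whole window of 10002 bp in both libraries. INSM1, a zinc finger factor of neuroendocrine cells, had 7846 bp in both, and HES6, a bHLH protein that favours neurogenesis, 6622 and 6772 bp. KRT20, the keratin used to diagnose this tumour, had 3545 and 3602 bp. KRT8, KRT18 and the touch channel gene PIEZO2 were in the same class with 1824 to 3540 bp. GFI1 and MYCL were H3K4me3 only as well, but each had H3K27me3 in 1 library, 1891 bp in replicate 2 at GFI1 and 613 bp in replicate 1 at MYCL. KRT8 had 335 bp in replicate 2.

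Members outside that class included EYA2, LHX3 and RAB3C. EYA2, a transcriptional co-activator, had no H3K4me3 and 6005 and 7273 bp of H3K27me3. RAB3C, a vesicle GTPase, had 2489 and 2306 bp of H3K4me3 and 5001 bp of H3K27me3 in both libraries. In each culture all of the H3K4me3 bases of RAB3C also lay inside H3K27me3 peaks. LHX3 was of another kind: 9630 and 9576 bp of H3K4me3 met 198 and 965 bp of H3K27me3, and with peaks of −log10 q 4 or more it had H3K4me3 only.

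Neuroendocrine secretory and synaptic genes followed the Merkel factors in class. Of 22, 15 (68.2%) had H3K4me3 only, 5 (22.7%) had both marks, 1 had H3K27me3 only and 1 had neither. The shares of all genes were 40.7, 25.0, 13.0 and 21.4% in that order. CHGA had 2797 and 2913 bp of H3K4me3, SCG3, a granin, had 2284 and 2715 bp, and SNAP25, a vesicle fusion protein, had 3607 and 3704 bp. PCSK1, PCSK2 and CPE, the enzymes that cut and trim prohormones, had 2954 to 3884 bp and no H3K27me3. Over this list the median of H3K4me3 was 3025 bp, against 5539 bp over the Merkel list, and members of the lists overlapped in their values.

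Of the 5 with both marks, NCAM1 and VAMP2 had 230 to 663 bp of H3K27me3 and fell to H3K4me3 only at −log10 q 4 or more. SYT1, the calcium sensor of vesicle release, had 4685 and 4363 bp of H3K27me3 over 1773 and 1854 bp of H3K4me3. ELAVL3, a neuronal RNA-binding protein, had 3220 and 4341 bp of H3K27me3, and RAB3A had 624 and 1648 bp. SYT1 and ELAVL3 too were H3K4me3 only under that stricter call, and RAB3A kept both marks. DDC, the decarboxylase that makes dopamine and serotonin, was the H3K27me3-only member, with 5345 and 7329 bp. SCG5, a granin-like chaperone, had no peak in its window.

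The neurogenic bHLH factors, relatives of ATOH1, went largely the other way. Of 17, 8 had H3K27me3 only, 6 had both marks, 2 had H3K4me3 only and 1 had neither. NEUROG1 had 5841 and 6683 bp of H3K27me3, and NEUROG3, the endocrine pancreas factor, had 6906 and 6938 bp. OLIG1 and OLIG2, the oligodendrocyte factors, were covered by 7273 and 8251 bp, each the same in both libraries, and ASCL2 and PTF1A by 7091 and 6934 bp. NEUROG2 had 2591 and 3119 bp of H3K4me3, all of it under H3K27me3 of 7665 bp in both cultures.

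NEUROD1, another factor of neuroendocrine cells, had both marks with little overlap: 1153 bp of H3K4me3 in each library, 1158 and 2462 bp of H3K27me3, and 286 and 297 bp shared. The H3K4me3-only members were NEUROD6, with 4689 and 3609 bp, and ATOH7, a retinal factor, with 2025 and 1452 bp of H3K4me3 and 572 bp of H3K27me3 in replicate 2. NEUROD4 had no peak. Between the Merkel list and this list the share of members with H3K27me3 ran from 4 of 16 to 14 of 17, against 37.9% of all genes.

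**Figure D3:**
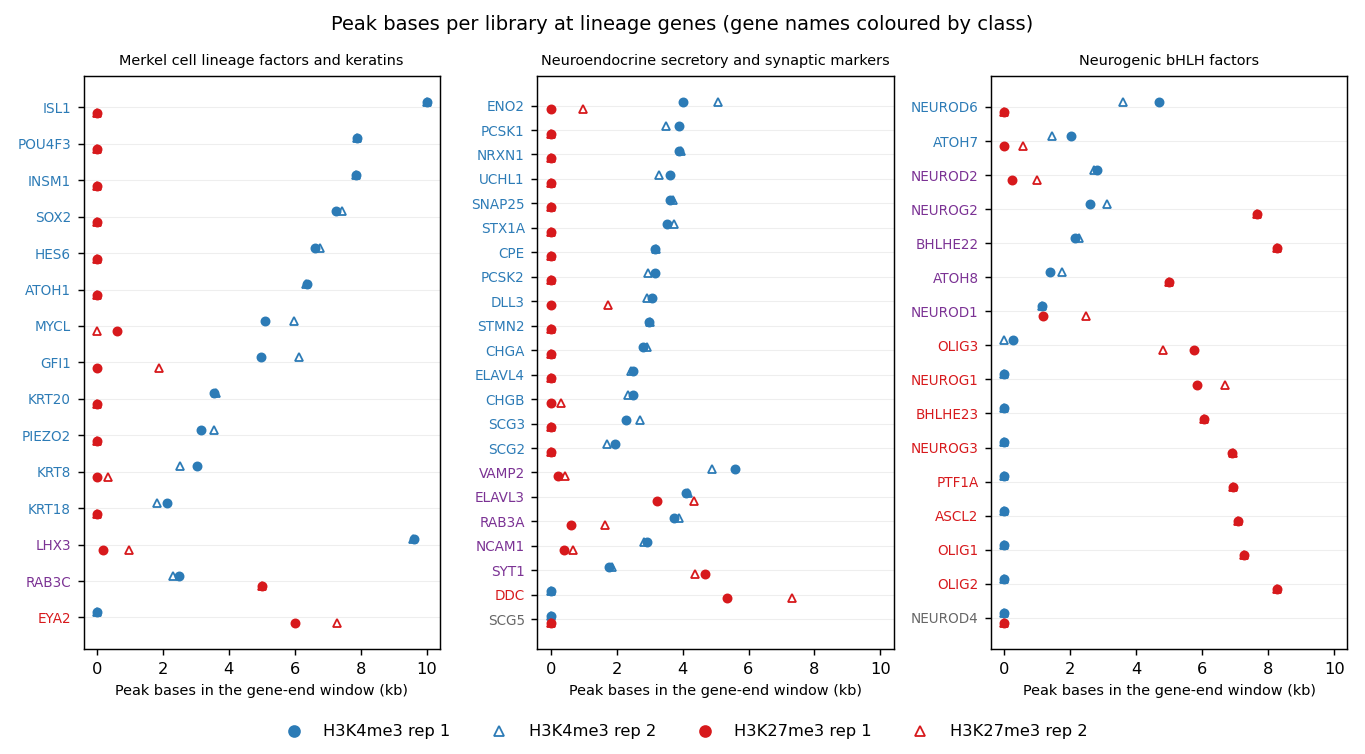
Bases of the gene-end window (kb) inside H3K4me3 peaks (blue) and H3K27me3 peaks (red) for genes of 3 lists; filled circles are replicate 1, open triangles replicate 2, and gene names are coloured by class (blue H3K4me3 only, purple both, red H3K27me3 only, grey neither). Red points lie at 0 for most Merkel and neuroendocrine genes and above 4 kb for most bHLH factors.

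By the peaks near either gene end, genes of neuronal transmitter type were split evenly between H3K27me3 with and without H3K4me3. Of 20, 7 (35%) had both marks, 7 (35%) had H3K27me3 only, 4 had neither and 2 had H3K4me3 only. The shares of all genes were 25.0, 13.0, 21.4 and 40.7% in that order. The tie did not hold in every setting. Both marks led by 7 against 6 with windows of 1000 bp and by 8 against 6 with 5000 bp. They led by 7 against 4 at −log10 q 4 or more and by 8 against 6 without H3K4me3 replicate 2. At the listed start sites, known for 16 of these genes, 7 had both marks, 6 neither, 2 H3K27me3 only and 1 H3K4me3 only. SLC17A6, a vesicular glutamate transporter, had H3K4me3 alone at 3556 and 3723 bp, and its relative SLC17A7 had 2649 and 2733 bp beside 4865 and 4955 bp of H3K27me3. SLC32A1, the vesicular GABA transporter, had 2225 and 3342 bp of H3K4me3 within 9887 bp of H3K27me3. CHAT and SLC18A3, which make and load acetylcholine from 1 locus, both had both marks, with 9248 and 10002 bp of H3K27me3 at CHAT and 7411 bp in both libraries at SLC18A3. TH, the first enzyme of catecholamine synthesis, was covered by 10002 bp of H3K27me3 in both libraries, and SLC6A4, the serotonin transporter, by 5001 bp.

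Markers of the other cell types of skin seldom had H3K4me3 alone: 0 of 12 melanocyte, 2 of 24 keratinocyte, 2 of 24 fibroblast and 0 of 21 endothelial genes did, against 40.7% of all genes. Of 12 melanocyte markers, 7 had neither mark, 4 had both and 1 had H3K27me3 only. The pigment genes TYR, TYRP1, DCT and MLANA had no peak in their windows in any of the 4 libraries, while MITF, their regulator, had 1917 and 1782 bp of H3K4me3 under 5001 bp of H3K27me3. KIT, the stem cell factor receptor, also had both marks, with 3458 and 3176 bp of H3K4me3 under 5001 bp. PMEL, the fibril protein of pigment granules, had both marks, with 2181 and 2899 bp of H3K4me3 and 4430 and 4402 bp of H3K27me3. MC1R, the melanocortin receptor, had both with 2462 and 3242 bp and 5419 and 5106 bp, and the factor PAX3 had 5001 bp of H3K27me3 alone.

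Of 24 keratinocyte and epidermal genes, 9 had neither mark, 8 both, 5 H3K27me3 only and 2 H3K4me3 only. TP63, the master factor of stratified epithelium, and the desmosomal genes DSG1, DSG3 and DSC3 had no peak in any library. KRT5 and KRT14, the basal keratins, had no H3K4me3 and H3K27me3 in 1 library each, 3277 bp in replicate 2 at KRT5 and 635 bp in replicate 1 at KRT14. GRHL3 and OVOL1, factors of epidermal differentiation, were covered by 5001 and 10002 bp of H3K27me3 in both libraries. The epithelial cadherin gene CDH1 had 1277 and 1588 bp of H3K4me3 under 3651 and 3902 bp of H3K27me3.

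Of 24 fibroblast and mesenchyme genes, 9 had both marks, 8 neither, 5 H3K27me3 only and 2 H3K4me3 only. COL1A1, a chain of type I collagen, had 843 and 2502 bp of H3K4me3 under 10002 bp of H3K27me3. TWIST1 had 2594 and 2295 bp, also wholly under H3K27me3, whereas TWIST2 had H3K27me3 only at 5001 bp. ZEB1 was H3K4me3 only, with 3055 and 3122 bp, and its relative ZEB2 had both marks, with 367 and 787 bp under 5001 bp. Of all 42 collagen genes, 21 (50%) had H3K27me3 only, 10 (23.8%) both, 7 (16.7%) neither and 4 (9.52%) H3K4me3 only. The shares of all genes were 13.0, 25.0, 21.4 and 40.7% in that order. COL9A2, a cartilage collagen, was an H3K4me3-only collagen with 7056 and 7413 bp.

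Of 21 endothelial markers, 8 had neither mark, 7 H3K27me3 only and 6 both. FLT4, a receptor of lymphatic endothelium, was covered by 10002 bp of H3K27me3 and KDR, the main VEGF receptor, by 4753 and 6044 bp. FLT1, the related receptor, had 807 and 919 bp of H3K4me3 under 5001 bp. Of 17 glial markers, 5 had H3K27me3 only, 5 both, 4 neither and 3 H3K4me3 only. PDGFRA, the receptor of oligodendrocyte precursors, had 5001 bp of H3K27me3, and SOX10, a factor of glia and neural crest, had no peak in its window.

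In the blood lineage lists H3K4me3 alone was found at 1 of 20 myeloid, 3 of 22 B lineage, 2 of 24 T and natural killer and 0 of 19 erythroid genes, against 40.7% of all genes. Of 20 myeloid genes, 10 had H3K27me3 only, 5 neither, 4 both and 1 H3K4me3 only. ITGAM, ITGAX, CD33 and MPO were each covered by 10002 bp in both libraries. CEBPA, a granulocyte factor, had 1805 and 1810 bp of H3K4me3 within 7601 bp of H3K27me3. The H3K4me3-only gene was CD68, a lysosomal protein of macrophages, with 1242 and 2251 bp, and no peak within 1 kb of its ends or at its listed start.

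Of 22 B lineage genes, 10 had H3K27me3 only, 5 neither, 4 both and 3 H3K4me3 only. At the listed start sites, known for 16 of them, 8 had neither mark, 4 H3K27me3 only, 2 both and 2 H3K4me3 only. CD22, IRF4 and IKZF3 were covered by 10002 bp of H3K27me3. EBF1, an early B cell factor, had instead 5001 bp of H3K4me3 in both libraries and no H3K27me3. PAX5, its partner in B cell commitment, had both marks, with 1228 and 2345 bp of H3K4me3, 2204 and 3097 bp of H3K27me3 and 296 and 1407 bp shared. RAG1, a subunit of the V(D)J recombinase, had both marks, with 2415 and 2438 bp of H3K4me3 and 2982 and 3363 bp of H3K27me3, and H3K4me3 only at −log10 q 4 or more. RAG2 beside it had 5001 bp of H3K27me3 and no H3K4me3.

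Of 24 T and natural killer genes, 11 had neither mark, 7 H3K27me3 only, 4 both and 2 H3K4me3 only. GATA3 was covered by 10002 bp of H3K27me3, and TBX21 and EOMES, T-box factors, had 703 to 1729 bp of H3K4me3 under 7365 to 10002 bp. BCL11B, a zinc finger factor of T cells and neurons, had 5001 bp of H3K4me3, and 3 bp of H3K27me3 in replicate 2. Of 19 erythroid and megakaryocyte genes, 9 had H3K27me3 only, 7 neither and 3 both. TAL1 had 7726 and 8348 bp of H3K27me3, and GATA2 had 6835 and 9509 bp. The beta-like globin genes HBB, HBG1 and HBG2 had no peak, whereas the alpha-globin genes HBA1 and HBA2 had 4419 to 4723 bp of H3K27me3.

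In the lists of other organs H3K4me3 alone was found at 1 of 24 genes of pancreas, lung, thyroid and kidney, 3 of 23 of gut and liver and 3 of 24 of muscle, against 40.7% of all genes. Of 24 genes of pancreas, lung, thyroid and kidney, 13 had H3K27me3 only, 7 both, 3 neither and 1 H3K4me3 only. The factors PDX1 and PAX2 were covered by 10002 bp of H3K27me3, and NKX2-1, the lung and thyroid factor, had 2402 and 2018 bp of H3K4me3 within 8602 and 7601 bp. NKX2-2 had 1626 and 2592 bp within 10002 bp. PAX6 had 408 and 159 bp of H3K27me3 and was unmarked at −log10 q 4 or more.

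Of 23 gut and liver genes, 8 had H3K27me3 only, 8 neither, 4 both and 3 H3K4me3 only. CDX2 was covered by 10002 bp of H3K27me3, and HNF4A by 6451 and 5745 bp. FOXA1 had 2933 and 2582 bp of H3K4me3 alone, whereas FOXA2 had 1421 and 1361 bp under H3K27me3 of 7734 and 7268 bp. The liver secretory genes ALB, AFP and TTR had no peak in any library.

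Of 24 skeletal and heart muscle genes, 10 had H3K27me3 only, 8 neither, 3 both and 3 H3K4me3 only. PAX7, GATA4 and TBX5 were covered by 10002 bp of H3K27me3. MYOD1, the muscle master factor, had 448 and 896 bp of H3K4me3 within 7566 bp of H3K27me3, and its relatives MYF5, MYF6 and MYOG had no peak. HAND2, a bHLH factor of heart and sympathetic neurons, had 9139 bp of H3K4me3 in both libraries and no H3K27me3, while HAND1 had 7550 and 8256 bp of H3K27me3 and no H3K4me3.

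Of 21 germline and testis genes, 9 had neither mark, 7 H3K27me3 only, 4 H3K4me3 only and 1 both. DAZL, DDX4 and SYCP3 had no peak, and MAEL, a protein of the piRNA pathway, had 3592 bp of H3K4me3 in both libraries. Of 14 pluripotency genes, 6 (42.9%) had neither mark, 3 (21.4%) H3K27me3 only, 3 (21.4%) both and 2 (14.3%) H3K4me3 only. POU5F1 had no peak, NANOG had 1407 and 1851 bp of H3K27me3, and LIN28A had 388 and 718 bp of H3K4me3 with 4189 and 4261 bp of H3K27me3.

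Of the genes for the enzymes that write and read the marks, more than 40.7%, the share of all genes, had H3K4me3 only. Of 31 PRC2 and PRC1 genes, 19 had H3K4me3 only, 10 both marks, 1 H3K27me3 only and 1 neither. EZH2 had 3952 and 4064 bp of H3K4me3, EED had 3273 and 3225 bp and SUZ12 had 2359 and 2646 bp, with no H3K27me3 at any of these core PRC2 subunits. EZH1, the second PRC2 methyltransferase, had both marks, with 1356 and 1572 bp of H3K4me3 and 2067 and 3100 bp of H3K27me3.

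The CBX2 and CBX8 genes, whose proteins read H3K27me3 in PRC1, lie close together on chromosome 17 and had both marks. CBX2 had 3705 and 3399 bp of H3K4me3 and 5683 and 8053 bp of H3K27me3, and CBX8 had 3296 and 4599 bp and 6272 and 9946 bp. BMI1, a PRC1 subunit, had 4216 and 3936 bp of H3K4me3, all of it under H3K27me3 of 5001 and 5854 bp. EPOP, RING1, PCGF1 and CBX7 also had both marks, with 1601 to 5888 bp of H3K27me3, and kept both at −log10 q 4 or more. PHF1 had both marks with 308 and 1602 bp of H3K27me3, and H3K4me3 only under that stricter call. PCGF5 had 376 and 1143 bp of H3K27me3 near a gene end and both marks at its listed start, which lies inside the span of the gene. AEBP2 had no mark near its ends and H3K4me3 at its listed start.

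Of 22 genes for H3K4 methyltransferase subunits and H3K4 or H3K27 demethylases, 16 had H3K4me3 only, 5 both marks and 1, SETD1B, neither. KMT2A had 4944 and 4867 bp of H3K4me3 and KMT2D 6167 and 5420 bp. KMT2B, their relative, had 5469 and 5839 bp of H3K4me3 with 3649 and 3330 bp of H3K27me3. KDM5B, an H3K4 demethylase, had 3456 and 4376 bp with 3632 and 2318 bp. CXXC1, MEN1 and KDM2A, the others with both, had 400 to 2027 bp of H3K27me3 and H3K4me3 only at −log10 q 4 or more. KDM6B, an H3K27 demethylase, had 4662 and 5253 bp of H3K4me3, and 1490 bp of H3K27me3 in replicate 2.

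Genes used by every dividing cell gave a reference for the H3K4me3-only class. Of 26 cell cycle and replication genes, 23 had H3K4me3 only and 3 both, and of 30 housekeeping genes 26 had H3K4me3 only and 4 both. Those with both marks were CDK2, PCNA and BUB1 in the first list and GPI, PSMB2, RAB7A and SNRPD3 in the second. Their H3K27me3 was short, 321 to 2449 bp, and PSMB2 alone of these 7 kept both marks at −log10 q 4 or more. Of 77 cytosolic ribosomal protein genes, 62 had H3K4me3 only, 12 both and 3 neither. Of 77 mitochondrial ribosomal protein genes, 51 (66.2%) had H3K4me3 only, 24 (31.2%) both and 2 (2.60%) neither. Of all genes, 40.7% had H3K4me3 only, 25.0% both, 21.4% neither and 13.0% H3K27me3 only.

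**Figure D4:**
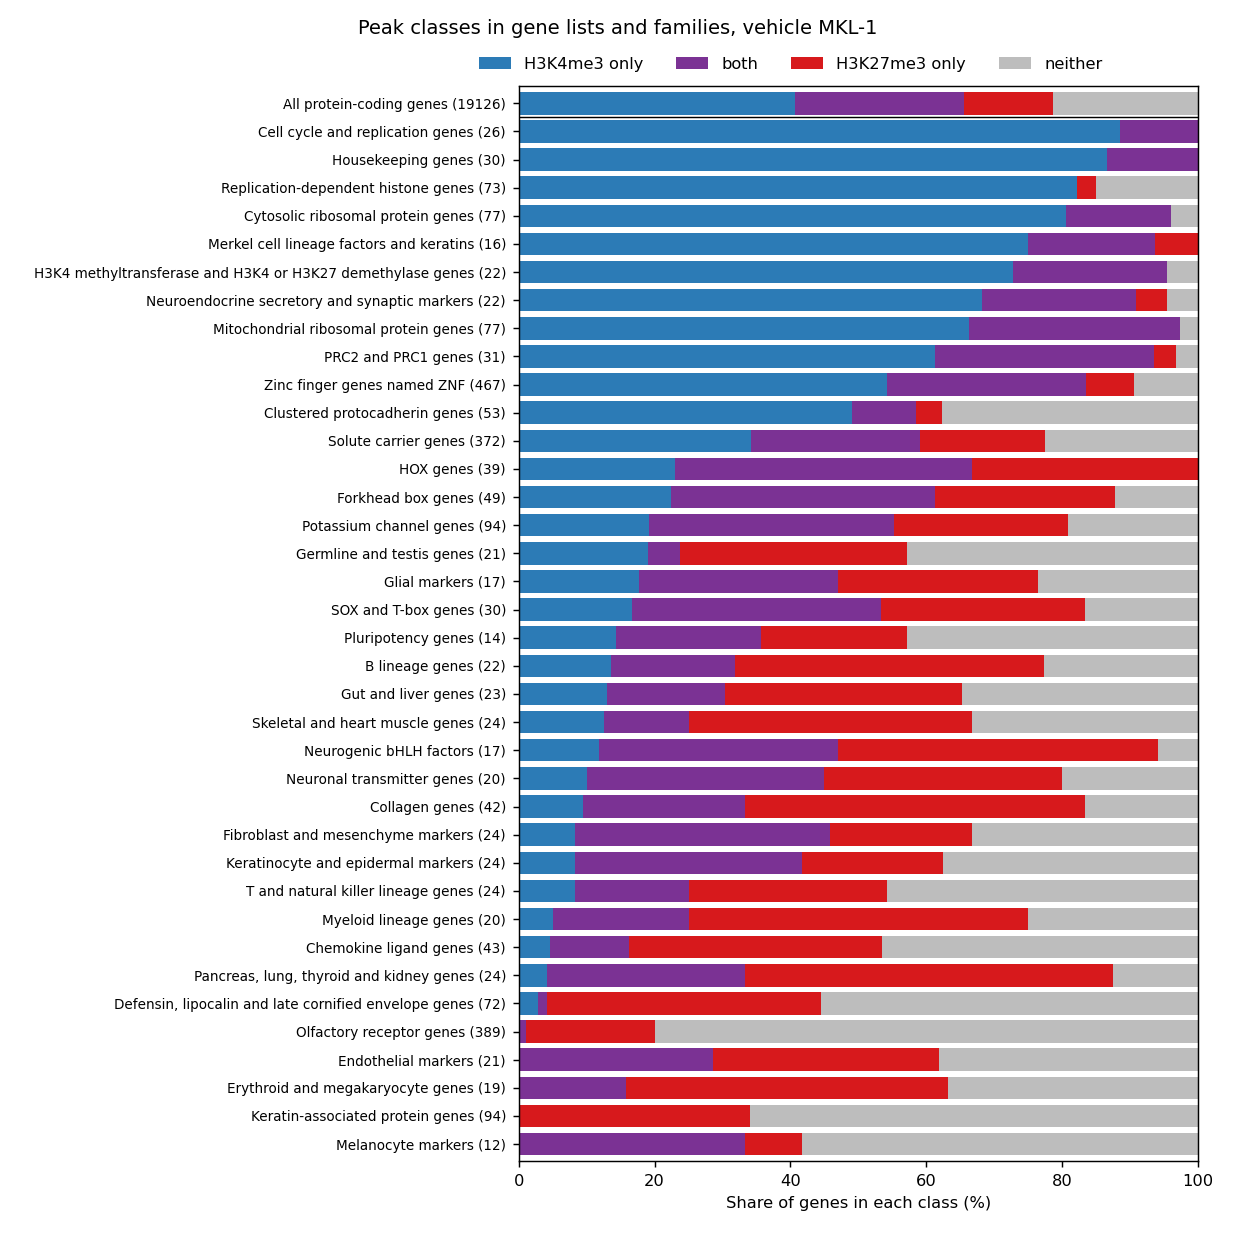
Share of genes (%) in each class, H3K4me3 only (blue), both (purple), H3K27me3 only (red) and neither (grey), for all protein-coding genes and for 37 gene lists and families, with the number of genes in brackets. Lists are ordered by their H3K4me3-only share, from cell cycle genes (23 of 26) to lists with none, such as the melanocyte markers (0 of 12).

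The HOX genes, which set position along the body axis, were marked without exception but differently in each cluster. Of 39 genes, 17 (43.6%) had both marks, 13 (33.3%) H3K27me3 only and 9 (23.1%) H3K4me3 only, against 25.0, 13.0 and 40.7% of all genes. The HOXB cluster, 200 kb on chromosome 17, was wholly inside 1 H3K27me3 peak in each library, and its 10 genes had H3K27me3 only. H3K4me3 there came to 0 and 0.584 kb. These were the longest H3K27me3 peaks of the genome, 555 kb in replicate 1 and 698 kb in replicate 2. They also reached PRAC1 and SKAP1, an adaptor of T cell signalling, and these genes with the 10 HOXB genes led the class by peak length.

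In the HOXA cluster, 107 kb on chromosome 7, HOXA3, HOXA4, HOXA5, HOXA6, HOXA7 and HOXA9 had H3K4me3 only, and HOXA2 on 1 side and HOXA10, HOXA11 and HOXA13 on the other had both marks. H3K4me3 covered 44.6 and 44.8% of the cluster and H3K27me3 19.3 and 21.8%. A single H3K4me3 peak of 28.4 and 29.0 kb ran across HOXA7 and HOXA9. In the HOXD cluster, 103 kb on chromosome 2, HOXD3, HOXD4 and HOXD8 had H3K4me3 only, between HOXD1 and the block HOXD9 to HOXD13, which had both. H3K4me3 covered 28.1 and 29.6% and H3K27me3 41.9 and 44.1%.

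In the HOXC cluster, 117 kb on chromosome 12, HOXC8, HOXC11 and HOXC12 had H3K27me3 only and the other 6 genes had both marks. H3K27me3 covered 79.4 and 81.7% and H3K4me3 14.2 and 15.3%. Bases under both marks came to 7.61 and 11.3 kb in HOXA, 11.4 and 13.3 kb in HOXC and 6.73 and 8.88 kb in HOXD. HOXA held 47.7 and 48.0 kb of H3K4me3 and 20.7 and 23.3 kb of H3K27me3, so mainly its H3K4me3 lay apart. HOXD held 29.1 and 30.6 kb of H3K4me3 and 43.4 and 45.6 kb of H3K27me3, so most of each mark lay apart. The middle genes of HOXA and HOXD were free of H3K27me3 in both libraries, apart from 739 bp at HOXA3 and 1250 bp at HOXD8 in replicate 2.

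**Figure D5:**
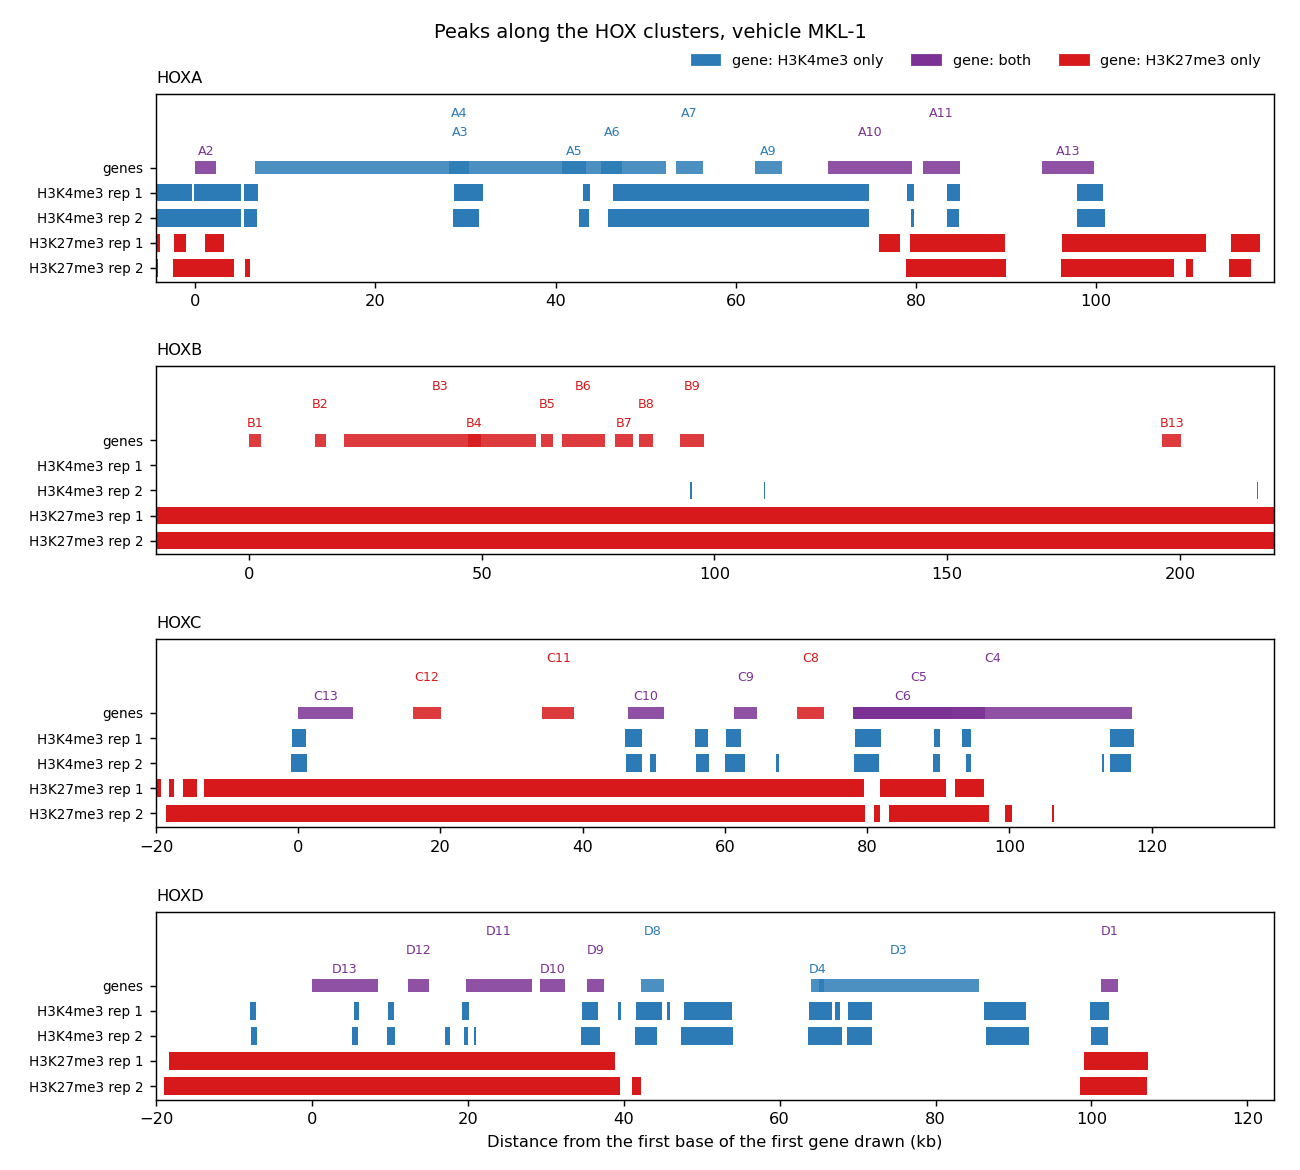
Peaks of H3K4me3 (blue) and H3K27me3 (red) in each replicate library along the 4 HOX clusters, with genes coloured by class; the axis gives the distance from the first gene drawn (kb), with up to 20 kb shown to each side. HOXB lies wholly under H3K27me3, HOXC mostly so, and the middle of HOXA and HOXD carries H3K4me3 without it.

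The forkhead, SOX and T-box factors direct development in many tissues, and their genes were found in all 4 classes. Of 49 forkhead box genes, 19 had both marks, 13 H3K27me3 only, 11 H3K4me3 only and 6 neither. FOXM1, a cell cycle factor, had 3149 and 3129 bp of H3K4me3 alone, and FOXF1, FOXC2 and FOXL1, neighbours on chromosome 16, had H3K27me3 only over 7900 to 9930 bp. Of 30 SOX and T-box genes, 11 had both marks, 9 H3K27me3 only, 5 H3K4me3 only and 5 neither. SOX2, SOX4, SOX6, SOX12 and TBX6 were the H3K4me3-only members, while SOX1, a close relative of SOX2, had 7342 and 7194 bp of H3K27me3 and no H3K4me3. SOX11 had 2687 and 2842 bp of H3K4me3 within 9523 and 10002 bp of H3K27me3. Of 94 potassium channel genes, 34 had both marks, 24 H3K27me3 only, 18 H3K4me3 only and 18 neither. Of 372 solute carrier genes, 127 (34.1%) had H3K4me3 only, 93 (25.0%) both, 84 (22.6%) neither and 68 (18.3%) H3K27me3 only, shares near those of all genes (40.7, 25.0, 21.4 and 13.0%).

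Neither mark was the most frequent class in 4 families that lie largely in tandem arrays, against 21.4% of all genes. Of 389 olfactory receptor genes, 311 had neither mark, 74 H3K27me3 only, 3 both and 1 H3K4me3 only. Of 94 keratin-associated protein genes, 62 had neither and 32 H3K27me3 only. Of 72 defensin, lipocalin and late cornified envelope genes, 40 had neither and 29 H3K27me3 only. Of 43 chemokine ligand genes, 20 had neither, 16 H3K27me3 only, 5 both and 2 H3K4me3 only. This lead of neither mark did not hold in every setting. H3K27me3 only led by 22 against 14 without H3K27me3 replicate 1 and by 18 against 16 with windows of 5000 bp. At the listed start sites, known for 30 chemokine genes, 20 had neither mark and 4 H3K27me3 only. The interferon-induced CXCL10 and CXCL11 had no peak, while CCL2, a monocyte attractant, had 4052 and 3887 bp of H3K27me3.

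Of 73 replication-dependent histone genes, also in arrays, 60 had H3K4me3 only, 2 H3K27me3 only, 11 neither and none both. Of 467 ZNF genes, 253 (54.2%) had H3K4me3 only, 137 (29.3%) both, 44 (9.42%) neither and 33 (7.07%) H3K27me3 only. Of 53 clustered protocadherin genes, 26 had H3K4me3 only, 20 neither, 5 both and 2 H3K27me3 only. The listed start sites, known for 47 of them, gave another picture: 33 had neither mark there, 7 H3K4me3 only, 4 H3K27me3 only and 3 both. At the listed starts of all 15101 genes that have one, 22.5% had neither mark and 44.2% H3K4me3 only. For these 3 families the shares of all genes were 40.7% H3K4me3 only, 25.0% both, 21.4% neither and 13.0% H3K27me3 only. Chromosome 19 had the highest share of genes with both marks among the 22 chromosomes (42.0% of 1451 genes) and the lowest with neither (9.44%). It also had the highest H3K27me3-only share, 25.5%, against 4.94% on chromosome 4, the lowest. The 8 unmarked genes farthest from any peak were uncharacterized loci assigned to chromosomes 14 and 15, 19.3 to 20.5 Mb from the nearest peak. How reads of near-identical copies were placed is not given in the sources used here, so the class of such copies, among them the FOXD4L genes, HBA1 and HBA2 and many LOC loci, is uncertain.

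The 12 H3K4me3-only genes with the longest H3K4me3, summed over the peaks that touch a window, had 17.6 to 40.5 kb. SATB1, a chromatin organizer, had 33.1 and 33.8 kb and HOXA3 35.2 and 40.5 kb. ISL1 had 24.8 and 24.4 kb, CDKN2C, an inhibitor of CDK4 and CDK6, 23.5 and 24.2 kb, and TFAP2B, an AP-2 factor, 23.4 and 24.5 kb. QSOX2, a thiol oxidase next to LHX3, had 23.0 and 22.9 kb, IRX2 19.6 and 19.6 kb and TFAP2A 18.0 and 17.6 kb. The readthrough locus RBM27-POU4F3 had 17.9 and 18.4 kb and shares peaks with POU4F3. HOXA6, HOXA7 and HOXA9 completed the leading 12.

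Among genes with both marks, the most shared bases lay at FOXC1, a mesodermal forkhead factor, with 6765 and 6764 bp. HES7, the oscillating repressor of somite segmentation, had 6575 and 6970 bp, and ADM, the vasodilator adrenomedullin, 5803 and 6146 bp. POU3F2, a neural POU factor, had 5481 and 5650 bp, and STC2, a secreted glycoprotein, 4888 and 5171 bp. COMMD3 lies next to BMI1 and had 5252 and 5617 bp, and SBF2 had 5001 bp from the peaks beside ADM. FOXC1 had H3K4me3 only at −log10 q 4 or more, so in at least 1 library its H3K27me3 peaks were weaker than that. The other 5 of the leading 12 were ANKRD34A, SPHK1, PCDH10, TRIM7 and LOC124900844, with 4543 to 5521 bp.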

How the data were processed

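CUT&RUN libraries of vehicle-treated MKL-1 cells were used: 2 against H3K4me3, 2 against H3K27me3 and 2 with IgG. The deposited files are 1 MACS2 peak list per library on hg38, broad for H3K27me3 and narrow for H3K4me3 and IgG. MACS2 2.1.1.20160309 is named in the submitters' processing notes, as are SAMtools 0.1.19, Bowtie2 2.2.9 and FastQC. Thresholds, control library, handling of duplicates and use of the spike-in are not given in the sources used here. In the deposited lists each peak has a fold enrichment (a ratio of pileup to background), a −log10 p and a −log10 q from the authors' run, and a score that the authors' software made from the −log10 q and that was not used. No read counts were used, so depth is unknown.

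Gene spans came from RefSeq's GRCh38.p14 table, whose chromosome coordinates are those of hg38. Each gene end was given a window reaching 2500 bp in either direction, and 1 bp of overlap with a peak sufficed. Windows of neighbouring genes share peaks, so genes are not independent and no test over genes was made. The replicate number pairs the libraries, since the labels say that each culture was divided between the antibodies. The covered length was compared by an exact permutation test over libraries. Start sites, strands and promoter sequences came from RefSeq's promoter table, which matched 15101 of the 19126 genes (79.0%) and none on chromosome 8. Features of start sites were therefore kept to 14 chromosomes with at least 80% matched, a choice made after the table was seen.

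The classes and the 37 gene lists were chosen with earlier results of these data known. Named genes are, by rule, the 12 with the longest peaks in each single-mark class, the 12 with the most shared bases, the 8 unmarked genes farthest from a peak, the 3 on each side of the distance limit, and members of the lists. Genes of the lists on chromosome X were not classed. Some members enter the counts but are not reported by name or drawn here. Alternatives were windows of 1000 and 5000 bp, start sites alone, −log10 q of 4 or more, 500 bp of overlap, a peak in at least 1 replicate, each library left out, classes within cultures, chromosome X added, and genes without overlapping windows. The window and class code was tested on simulated data (300 genes, 0 wrong in each of the 4 steps). Python 3.11.15, numpy 2.4.6, pandas 2.3.3, scipy 1.17.1 and matplotlib 3.10.9 were used.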

Additional observations from a re-analysis of the deposited data

Results flagged for a closer look

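Many peaks touched no gene-end window and entered none of the class counts. These were 9800 H3K4me3 peaks in replicate 1 and 10655 in replicate 2, against 33 and 4 IgG peaks in the same position. For H3K27me3 they were 31755 in replicate 1 and 34401 in replicate 2. Peaks at windows were 55.7 and 54.1% of the H3K4me3 peaks and 21.0 and 21.2% of the H3K27me3 peaks.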

How the results depend on the processing

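With peaks of −log10 q 4 or more, 1585 genes had H3K27me3 only, 2491 had both marks and 2061 of these shared bases in both cultures, and the log2 ratio of covered length was 1.35 instead of 2.01. The 9449 genes whose window touches no other window were also counted alone. Of these, 2887 (30.6%) had H3K4me3 only, 1563 (16.5%) H3K27me3 only, 2236 (23.7%) both and 2763 (29.2%) neither. The shares of all genes were 40.7, 13.0, 25.0 and 21.4% in the same order, so fewer genes entered and the shares moved as well. Leaving out 1 library at a time gave 6595 to 7853 H3K4me3-only genes, 2372 to 2815 H3K27me3-only, 4877 to 5955 with both and 3761 to 4044 with neither. Likewise the log2 ratio of covered length ran from 1.92 to 2.1, genes with shared bases from 4487 to 5300 when 1 culture was left out, and gene lists with the same most frequent class from 33 to 36 of 37. With the replicate block, the class called within each culture, 6098, 2268, 4773 and 3478 genes had H3K4me3 only, H3K27me3 only, both or neither in both cultures. The paired permutation of covered length gave the same log2 ratio of 2.01 with p = 0.5, the smallest exact value for 2 pairs. The other settings, with windows of 1000 or 5000 bp, start sites alone, 500 bp of overlap, either replicate, or chromosome X, kept every class count within 1.5 times. The most frequent class held in 31 lists at 1000 bp, 29 at 5000 bp and 27 at −log10 q 4 or more. In this last setting the B, myeloid, erythroid, muscle, and gut and liver lists had neither mark most often instead of H3K27me3 only. The forkhead and potassium channel lists had H3K4me3 only instead of both, and the fibroblast list neither instead of both. In the glial and neuronal transmitter lists H3K27me3 only and both had been tied. At this threshold the glial list had neither most often and the transmitter list both. The Merkel, neuroendocrine, PRC and housekeeping lists kept theirs in each of the 7 settings run on lists. List members with a listed start site were also classed within 2.5 kb of that site alone. There H3K27me3 only led in the bHLH (4 of 11), glial (4 of 11) and myeloid (7 of 15) lists. It also led in the gut and liver (6 of 14), pancreas to kidney (8 of 16) and collagen (18 of 30) lists. Neither led in the B (8 of 16), erythroid (3 of 8) and muscle (7 of 16) lists. In the transmitter list both led (7 of 16).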

Other observations

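The chromosomes differed in their classes beyond chromosome 19. Chromosome 17 had both marks at 33.3% of its 1169 genes, and chromosome 20 had H3K27me3 only at 23.6% of 537. Chromosome 21 had neither mark at 34.3% of 239 genes, and chromosome 22 had H3K4me3 only at 49.9% of 451. H3K4me3-only shares ran from 23.0% on chromosome 19 to that value on chromosome 22.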
